A study of Mus musculus with 32 samples.

Results

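The 10 genes described here are the activating Fc gamma receptors Fcgr1, Fcgr3 and Fcgr4, their signalling subunit Fcer1g, the inhibitory Fc receptor Fcgr2b, the Fc receptor-like gene Fcrls, the leukocyte receptors Lair1 and Cd84, the surface antigen Cd52 and the phosphatase gene Ptpn6. They were chosen by name, with earlier results of these data known, under the heading of Fc receptors and inhibitory leukocyte receptors. All 10 were found among the 22337 genes of the deposited tables. RNA-seq was made from the hippocampus (HPC), the meninges and sorted meningeal lymphatic endothelial cells (mLECs) of male mice 6 months of age on a C57BL/6J background, with 1 mouse per sample. 5xFAD mice carry mutant human transgenes of familial Alzheimer's disease, APP among them, under the Thy1 regulatory sequence, which drives expression mainly in neurons, and WT mice were littermates without the transgenes. Light-treated 5xFAD mice (5xFAD+L) were given near-infrared light through the shaved scalp under anaesthesia over several weeks. Untreated mice were shaved and anaesthetised in the same way under indoor lighting, and no light-treated WT group was sequenced here. The HPC was taken from 4 WT, 4 untreated 5xFAD and 4 light-treated mice, the meninges from 4, 3 and 3, and mLECs from 4, 3 and 3. The mLECs were sorted as CD45-, CD31+ and PDPN+ cells, a gate that removes leukocytes.

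Fc receptors bind the constant part of antibodies. The activating receptors signal through the ITAM motif of the subunit encoded by Fcer1g and start phagocytosis in macrophages and microglia. Fcgr2b and Lair1 instead carry ITIM motifs, which dampen that signal by recruiting phosphatases such as SHIP-1 and SHP-1, the products of Inpp5d and Ptpn6. In the brain these genes are expressed mainly by microglia, and in the meninges by border macrophages and other leukocytes, B cells using Fcgr2b alone among the Fc gamma receptors.

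Of the 10 genes, 5 lie close together on chromosome 1 (GRCm38, GENCODE vM21): Fcgr2b from 170958617 to 170976547, Fcgr4 from 171018920 to 171029761, Fcgr3 from 171051174 to 171064935, Fcer1g from 171229572 to 171234365 and Cd84 from 171839697 to 171890718. Fcrls (87250758 to 87263738) and Fcgr1 (96282909 to 96293969) are on chromosome 3, Cd52 (134082448 to 134095082) on chromosome 4, Ptpn6 (124720707 to 124738714) on chromosome 6 and Lair1 (4003402 to 4063204) on chromosome 7. The promoter windows of 5 of the genes are shown. The letters GAGGAA, the core of the motif bound by PU.1, the myeloid factor encoded by Spi1, can be looked for in them. Of the windows not shown, those of Fcrls and Cd84 hold the letters and those of Fcer1g and Ptpn6 do not. Whether the motif bears on the levels of these genes was not tested. The windows run from 250 bases before to 50 after the start of the gene in RefSeq (GRCm38.p6), 5′ to 3′ on the gene's strand, and capitals mark GAGGAA or its reverse complement TTCCTC.

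Fcgr1 (chr3:96293920-96294219, minus strand): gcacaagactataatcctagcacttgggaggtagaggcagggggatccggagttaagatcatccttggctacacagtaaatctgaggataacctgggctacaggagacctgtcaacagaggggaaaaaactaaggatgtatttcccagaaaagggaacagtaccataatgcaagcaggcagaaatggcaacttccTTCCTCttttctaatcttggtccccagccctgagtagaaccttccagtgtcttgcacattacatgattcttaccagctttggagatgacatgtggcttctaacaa
Fcgr3 (chr1:171059354-171059653, minus strand): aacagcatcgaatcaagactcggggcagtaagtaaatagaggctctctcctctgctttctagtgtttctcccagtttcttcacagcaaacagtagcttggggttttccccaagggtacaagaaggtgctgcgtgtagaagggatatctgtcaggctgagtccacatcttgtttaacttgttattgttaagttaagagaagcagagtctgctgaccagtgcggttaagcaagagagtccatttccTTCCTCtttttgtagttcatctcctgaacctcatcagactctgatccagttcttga
Fcgr4 (chr1:171018676-171018975, plus strand): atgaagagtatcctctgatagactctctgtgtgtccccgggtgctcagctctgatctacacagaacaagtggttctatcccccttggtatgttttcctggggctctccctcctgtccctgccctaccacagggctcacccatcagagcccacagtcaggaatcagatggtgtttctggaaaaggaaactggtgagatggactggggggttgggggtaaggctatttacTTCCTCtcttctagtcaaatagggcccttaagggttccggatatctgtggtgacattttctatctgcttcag
Fcgr2b (chr1:170976022-170976321, minus strand): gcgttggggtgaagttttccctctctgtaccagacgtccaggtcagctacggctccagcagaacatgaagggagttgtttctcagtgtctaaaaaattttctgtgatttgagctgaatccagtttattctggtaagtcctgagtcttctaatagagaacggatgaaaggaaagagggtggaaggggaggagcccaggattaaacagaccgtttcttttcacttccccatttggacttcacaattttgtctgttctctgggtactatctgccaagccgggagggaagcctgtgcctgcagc
Lair1 (chr7:4063155-4063454, minus strand): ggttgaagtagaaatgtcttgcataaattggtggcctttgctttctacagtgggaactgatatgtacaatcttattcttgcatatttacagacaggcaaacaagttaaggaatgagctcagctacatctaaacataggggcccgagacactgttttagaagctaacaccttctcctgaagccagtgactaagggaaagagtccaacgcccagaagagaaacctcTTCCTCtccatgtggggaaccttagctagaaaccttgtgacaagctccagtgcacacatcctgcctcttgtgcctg

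In the 3 activating receptor genes and Lair1 the letters lie close upstream of the start, and Fcgr2b has none in its window. Fcgr3 has another RefSeq window, chr1:171059345-171059644, which also holds the letters. Both windows of Fcgr3 lie inside the GENCODE span of the gene given above, and so does the window of Fcgr2b in the span of its own gene. Of the 9 genes with a window, 6 hold the motif on either strand (Fcgr1, Fcgr3, Fcgr4, Fcrls, Lair1 and Cd84), against 28.3% of the 32851 windows in the table. The longer form GAGGAAGT, which contains GAGGAA, is found only in the window of Fcgr4 among the 9, on the reverse strand, and in 3.2% of all windows. Such a match describes letters and not binding. Cd52 has no window in the table.

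Total counts per sample were 13952825 to 23856476 for HPC, 6601143 to 14708202 for meninges and 14231415 to 24207326 for the sorted cells. Levels are FPKM values, which the authors scaled to transcript length and library size, and fold changes come from edgeR's quasi-likelihood test on the counts, with Benjamini-Hochberg adjustment over every tested gene of a tissue. A gene was called changed at an adjusted p below 0.05 with at least a 2-fold change. Thy1, whose regulatory sequence is in the transgenes, had an FPKM of 170 to 189 in WT HPC, 407 to 622 in untreated and 434 to 522 in light-treated 5xFAD HPC. Markers of border tissue differed between the HPC samples. The summed FPKM of 9 leptomeningeal fibroblast markers, all 9 above 0 in every sample, was 42.6 to 70.2 in WT, 89.7 to 182 in untreated 5xFAD and 23.3 to 42.8 in light-treated mice. Choroid plexus markers, 5 of 5 present in every HPC sample, summed to 36.2 to 2789 in WT, 205 to 3184 in untreated and 62.9 to 244 in light-treated mice.

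In HPC all 10 genes were called higher in untreated 5xFAD than in WT mice, while 4.23% of the 12981 tested genes were called higher. The changes ran from 3.73-fold for Lair1 to 16.4-fold for Fcgr4. Fcgr4 had 2 to 6 counts per WT mouse and passed the filter on low values only through the 5xFAD mice, so its fold is uncertain. Every 5xFAD sample was above every WT sample for each of the 10, against 8.75% of the tested genes. In bulk tissue, more cells of a type and more RNA per cell cannot be told apart.

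Among the activating receptors, Fcgr1 encodes the high-affinity IgG receptor. Its FPKM was 2.25, 2.33, 3.11 and 1.96 in the WT mice, 18.3, 9.28, 12.2 and 9.08 in the untreated 5xFAD mice, and 7.85, 6.60, 12.6 and 13.3 in the light-treated mice. The WT mice formed a narrow group below all others, and the 5xFAD groups overlapped. Fcgr1 rose by 2.58 on the log2 scale (SE 0.30) from WT to untreated 5xFAD, with an edgeR adjusted p of 0.000118.

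Fcgr3, a low-affinity activating receptor, had the highest level of the Fc gamma receptors in HPC. Its FPKM was 19.9, 24.0, 22.9 and 17.4 in WT, 109, 91.5, 80.5 and 110 in untreated 5xFAD and 59.3, 49.9, 90.3 and 81.9 in light-treated mice. The lowest 5xFAD value, of a light-treated mouse, was above the highest WT value. The log2 fold change of untreated 5xFAD over WT was 2.23 (SE 0.20, edgeR adjusted p = 2.83e-05).

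Fcgr4, an activating receptor for IgG2 subclasses and IgE, was close to absent in WT HPC. It measured 0.07, 0.22, 0.32 and 0.16 FPKM in WT, 5.80, 1.76, 2.66 and 1.74 in untreated 5xFAD and 1.32, 1.11, 2.28 and 1.77 in light-treated mice. One untreated mouse had over 2 times the level of every other mouse. Fcgr4 rose by 4.03 on the log2 scale (SE 0.56, edgeR adjusted p = 0.000405), and by between 3.46 and 4.36 when each mouse was left out in turn. Over the 15 alternatives in which it was tested the value ran from 1.64 to 4.36, its size resting on the low WT counts.

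Fcer1g, the subunit through which these receptors signal, was the most abundant of the 10 genes in every HPC group. Its FPKM was 23.1, 37.1, 44.1 and 25.8 in WT, 189, 153, 166 and 168 in untreated 5xFAD, and 97.4, 88.0, 195 and 188 in light-treated mice. The untreated mice lay close together, whereas the light-treated mice split into a lower and a higher pair. The log2 fold change of untreated 5xFAD over WT was 2.39 (SE 0.29, edgeR adjusted p = 0.000152).

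Fcgr2b, the inhibitory Fc receptor, measured 3.46, 3.37, 3.05 and 3.59 FPKM in WT, 37.4, 18.8, 14.6 and 30.4 in untreated 5xFAD and 11.7, 14.2, 27.8 and 25.1 in light-treated mice. WT values were nearly equal and the 5xFAD values spread widely. It rose by 2.64 on the log2 scale (SE 0.31, edgeR adjusted p = 0.000125). Of the distinct 50-base stretches in the transcripts of Fcgr3, 9.58% also occur in those of Fcgr2b, and 2.92% the other way. Their counts held fractions, which mark reads shared out between genes, in 21 and 22 of 22 samples, so part of either level may be reads of the other.

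Fcrls encodes an Fc receptor-like protein of mouse microglia with no known antibody binding. It measured 19.7, 13.4, 15.1 and 17.7 FPKM in WT, 95.5, 56.9, 58.1 and 73.5 in untreated 5xFAD and 40.9, 59.4, 76.2 and 41.7 in light-treated mice, and rose by 2.14 on the log2 scale (SE 0.23) in untreated 5xFAD over WT. Ptpn6, whose phosphatase acts below ITIM receptors, measured 3.20, 3.21, 3.25 and 2.61 in WT, 20.9, 10.9, 11.1 and 16.4 in untreated 5xFAD and 12.1, 9.74, 14.1 and 16.4 in light-treated mice, and rose by 2.29 (SE 0.24). For both genes the WT mice stood apart from the 5xFAD mice with or without light.

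Lair1, an inhibitory receptor for collagens and for the collagen-like tail of C1q, had the smallest change and the smallest SE of the 10. It measured 6.34, 5.39, 4.17 and 5.16 FPKM in WT, 26.0, 18.7, 17.3 and 21.4 in untreated 5xFAD and 15.7, 13.6, 23.5 and 22.1 in light-treated mice. Of the light-treated mice, 2 were below the untreated range and 2 within it. The log2 fold change of untreated 5xFAD over WT was 1.90 (SE 0.16, edgeR adjusted p = 2.17e-05).

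Cd84, a SLAM family receptor that binds itself on neighbouring cells, measured 1.59, 1.36, 1.84 and 1.32 FPKM in WT, 14.0, 7.71, 7.03 and 9.17 in untreated 5xFAD and 5.68, 6.70, 11.1 and 9.42 in light-treated mice. Its log2 fold change in untreated 5xFAD over WT was 2.66 (SE 0.27). Cd52, a short GPI-anchored glycoprotein of leukocytes, measured 3.53, 3.95, 4.28 and 5.07 in WT, 66.3, 38.3, 46.2 and 36.3 in untreated 5xFAD and 27.3, 15.5, 45.1 and 49.2 in light-treated mice. Cd52 had the next largest change after Fcgr4, 3.49 on the log2 scale (SE 0.36), and its lowest 5xFAD value was about 3 times its highest WT value.

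**Figure D1:**
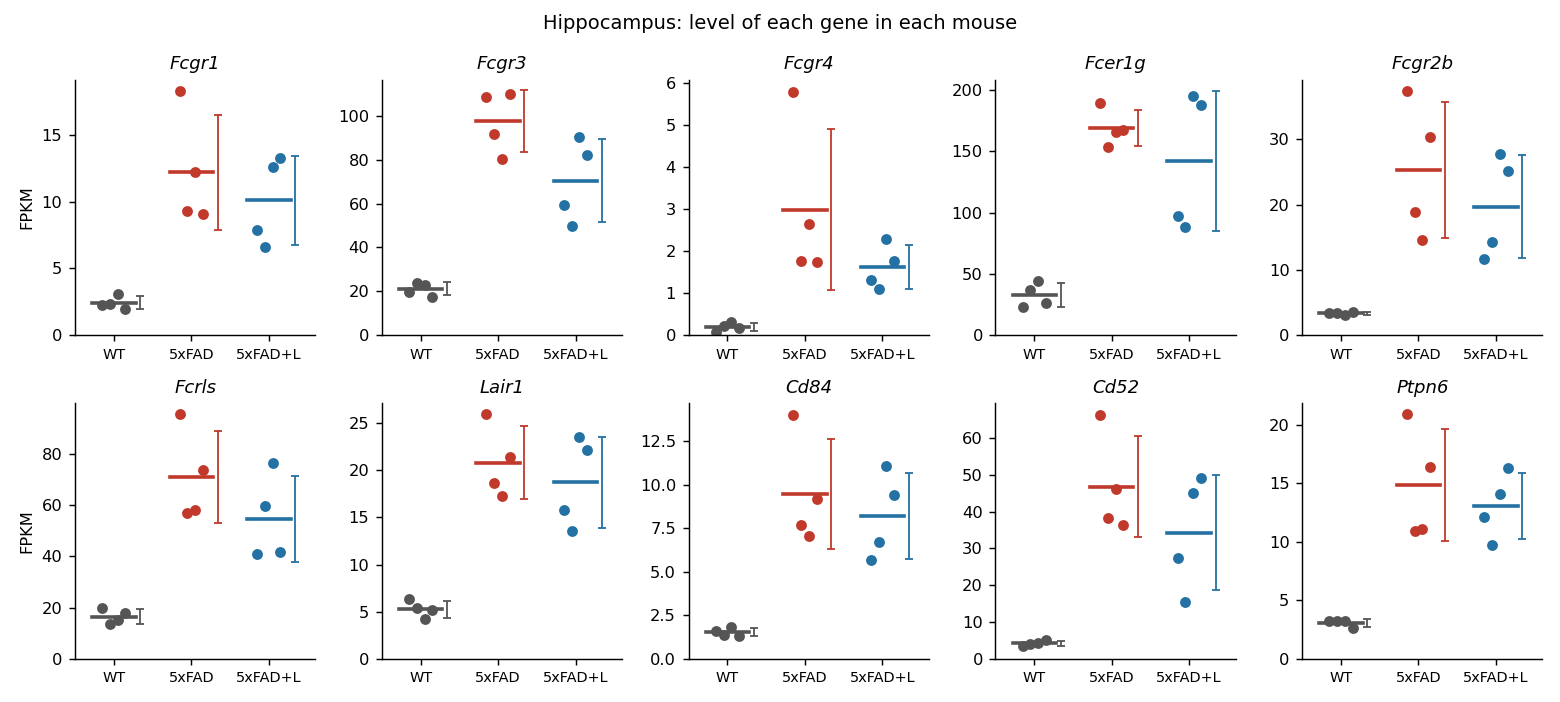
FPKM of the 10 genes in HPC, 1 point per mouse, in 4 WT mice, 4 untreated 5xFAD mice and 4 mice with light (5xFAD+L); horizontal lines are means and vertical bars are SD, and each axis starts at 0. In every panel the WT points lie below all 5xFAD points, and the 5xFAD+L points overlap the untreated ones.

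The 10 levels kept a similar order in the 3 HPC groups. Fcer1g, Fcgr3 and Fcrls were the 3 highest and Fcgr4 the lowest in each group, and Cd52 had rank 5 in WT and rank 4 in both 5xFAD groups. The ranges of Fcgr3 and Fcer1g overlapped in WT, whereas those of Fcrls and Lair1 did not. In untreated 5xFAD mice Fcer1g and Fcgr3 did not overlap, nor did Cd84 and Fcgr4, and every other neighbouring pair in the order did. The ratio of the summed FPKM of the 3 activating receptors to that of Fcgr2b was 7.09 ± 1.44 (SD, n = 4) in WT and 4.88 ± 1.37 (SD, n = 4) in untreated 5xFAD HPC, a difference that did not pass an exact permutation test (two-sided p = 0.143, smallest possible 0.0286). In light-treated mice it was 4.40 ± 0.985 (SD, n = 4), with an exact p of 0.0571 against WT and 0.714 against untreated mice. These were 3 of 7 tests of this ratio, with no adjustment. Fcgr3 made up most of the activating sum, so the ratio mainly compares Fcgr3 with Fcgr2b, whose levels may include reads of each other.

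The rise of the 10 genes was set against that of 6 genes taken as a pan-myeloid reference. These were Csf1r, Spi1, Irf8, Aif1, Itgam and Laptm5, and 5 of them were themselves called higher. The level of each member was taken as its log2(FPKM + 1) minus the mean of those 6, and 40 such comparisons were made over the members, with no adjustment. All 10 members were higher on this scale in untreated 5xFAD than in WT HPC, 5 of them with no overlap between the groups, against 0.37% of the tested genes. The mean of the 6 itself rose, from 3.42 to 3.62 in WT to 4.72 to 5.50 in untreated 5xFAD mice. A gene without change therefore falls on this scale, so that share is low by construction and is no yardstick for myeloid genes. The 5 were Cd52 with a difference of 1.61, Fcgr2b with 0.94, Fcgr3 with 0.60, Fcrls with 0.47 and Ptpn6 with 0.36, each with an exact permutation p of 0.0286 (two-sided, n = 4 and 4), the smallest that these group sizes allow. Fcer1g differed by 0.83, Cd84 by 0.46, Fcgr1 by 0.36 and Lair1 by 0.24, with overlapping groups and exact p of 0.0571, 0.0571, 0.229 and 0.0857. Fcgr4 differed by 0.08 (exact p = 0.771), a value set by its low WT level on this scale, since with a pseudocount of 0.1 in place of 1 the difference was 1.63 (exact p = 0.0286).

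The summed fibroblast and border macrophage markers were also higher in untreated 5xFAD than in WT HPC. In light-treated HPC the border macrophage sums overlapped those of WT and the fibroblast sums ran lower, while the members stayed above WT. The 8 border macrophage markers, all above 0 in every HPC sample, summed to an FPKM of 3.61 to 6.19 in WT, 9.17 to 17.2 in untreated 5xFAD and 3.19 to 7.43 in light-treated HPC, and 1 of the 3 that were tested, Pf4, was called higher in untreated 5xFAD mice. In WT meninges the same markers summed to 337 to 561, and the fibroblast markers to 1669 to 2328. The mean FPKM of 7 members (Fcgr1, Fcgr3, Fcer1g, Fcrls, Lair1, Cd84 and Ptpn6) was higher in untreated 5xFAD HPC than in WT meninges, with overlapping ranges for Fcgr1, Fcgr3, Fcer1g and Ptpn6. The 10 homeostatic microglia markers summed to 233 to 260 in WT and 537 to 744 in untreated 5xFAD HPC, with 6 of 10 called higher, and 10 markers of plaque-associated microglia to 65.5 to 92.2 and 400 to 804, with 8 called higher. The part of border tissue in the levels of the members was not tested.

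The other genes of the pathway rose in part. Among 12 ITAM adaptors and proximal kinases, 9 were tested and 6 were called higher in untreated 5xFAD than in WT HPC, with a median log2 fold change of 1.19 over the tested ones. The 4 with the lowest p were Tyrobp, the adaptor DAP12, at 2.84, Hcst, the adaptor DAP10, at 3.12, and the kinase genes Lyn at 1.19 and Syk at 1.15. Of 20 genes that act below the receptors, 17 were tested and 11 were called higher (median 1.46), among them Lat2 (2.80) and Blnk (1.74), which encode linker proteins, the exchange factor gene Vav1 (1.84) and Nckap1l (1.49), whose product drives actin assembly. The median over all 12981 tested genes was 0.01.

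Genes of the inhibitory side were listed separately. Of 12 phosphatases and adaptors, 10 were tested and 2 were called, Ptprc, which encodes CD45, at 2.40 and Inpp5d, which encodes SHIP-1, at 1.57. Csk, the gene of a kinase that restrains Src kinases, was at 0.55 and Cblb, that of an E3 ligase, at -0.81, neither past both thresholds. Of 21 other inhibitory receptors, 13 were tested and 8 were called higher (median 1.47). Those with the lowest p were Cd72 at 2.52, Cd22, a sialic acid-binding receptor, at 5.03, Vsir, a checkpoint receptor, at 1.50 and Milr1, first described in mast cells, at 3.98. In the SLAM family of Cd84, 4 of the 5 tested of 10 genes were called higher: Ly9 at 4.93, Slamf9 at 2.67, Cd48 at 2.98 and Slamf6 at 2.24.

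Ligands were measured too. Of 9 collagen and collagen-like ligands of Lair1, 8 were tested and 5 were called higher in untreated 5xFAD HPC, with C1qa at 2.28, C1qb at 2.26 and C1qc at 2.16, which encode the 3 chains of complement C1q, and Col1a2, which is also in the list of fibroblast markers, at 1.83. Of 10 immunoglobulin constant genes only Ighm and Igkc were expressed enough to be tested. Ighm rose by 1.71 on the log2 scale (edgeR adjusted p = 6.48e-05), from 8.84 to 17.6 FPKM in WT to 37.3 to 53.6 in untreated 5xFAD mice, and Igkc had a value of 1.13 that did not pass (adjusted p = 0.303). Fcgrt, the neonatal Fc receptor and the only 1 of 12 other Fc receptors that was tested, had a value of 0.59 (adjusted p = 0.0104), short of a 2-fold change.

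Over the 12 HPC samples, the tested gene whose log2(FPKM + 1) profile lay nearest to that of a member, by mean absolute difference after centring, was Cxcl16 for Fcgr1 (0.11), Ctsh for Fcgr3 (0.12), Trim30a for Fcgr4 (0.11), Tyrobp for Fcer1g (0.20), Ctsd for Fcgr2b (0.18), Irf7 for Fcrls (0.18), Laptm5 for Lair1 (0.10), C3ar1 for both Cd84 (0.10) and Ptpn6 (0.09), and Trem2 for Cd52 (0.20). The next nearest were Ctss for Fcgr1, Fcgr3 and Cd84, Srgn for Fcgr4, Fcgr3 for Fcer1g, Irf8 for Fcgr2b, Cd84 for Fcrls, Tyrobp for Cd52 and Cd37 for Ptpn6. The points share the 3 groups, so these likenesses largely describe the step from WT to 5xFAD.

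Light treatment was compared with no treatment in 5xFAD HPC, the comparison the study made for light. None of the 10 genes was called changed, and 0.27% of the 12981 tested genes were. All 10 fitted values were below 0, from -0.10 for Lair1 to -0.90 for Fcgr4. Fcgr3 was the only member with an unadjusted p below 0.05, a level that 18.3% of the tested genes reached: its log2 fold change was -0.47 (95% interval -0.87 to -0.06), with an edgeR p of 0.0261 and an adjusted p of 0.209. The interval for Fcgr4 ran from -1.85 to 0.05, that for Cd52 from -1.12 to 0.23, that for Fcer1g from -0.83 to 0.34, and that for Lair1 from -0.43 to 0.22. The intervals of 8 of the 10 lay within a 2-fold change in either direction, and DESeq2 called none of the members either. None of the 10 was free of overlap between untreated and light-treated mice, against 7.63% of the tested genes.

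The values of light-treated mice came in pairs. All members but Fcrls were lower in mice 1 and 2 than in mice 3 and 4, and so was the mean log2(FPKM + 1) of the 6 pan-myeloid genes, at 4.60 and 4.53 against 5.21 and 5.14. In untreated mice that mean was 5.50, 4.90, 4.72 and 5.27, and in WT mice 3.42 to 3.62. Relative to it, 7 members were lower and 3 were higher in light-treated than in untreated mice, the differences ran from -0.30 to 0.08, none was free of overlap, against 1% of the tested genes, and the smallest exact permutation p was 0.0857. The 3 fibroblast markers called lower in light-treated mice, of 9, and the border macrophage sums above moved in the same direction as the 10 members, and their part was not tested.

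Compared with WT, the light-treated mice still had all 10 genes called higher, against 2.26% of the tested genes, and every light-treated mouse was above every WT mouse for each, against 7.33%. The log2 fold changes ran from 1.75 for Fcrls to 3.14 for Fcgr4, with Cd52 at 3.05, Cd84 at 2.51, Fcgr2b at 2.29, Fcgr1 at 2.21, Fcer1g at 2.15, Ptpn6 at 2.09, Lair1 at 1.80 and Fcgr3 at 1.76. The highest edgeR adjusted p was 0.00501, for Fcgr4. This comparison and that of untreated with WT mice share the 4 WT samples. Between light-treated and untreated mice the pathway lists had 0 genes called in either direction among the ITAM, downstream, phosphatase, inhibitory receptor, SLAM, immunoglobulin and ligand lists and medians from -0.42 to -0.12.

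**Figure D2:**
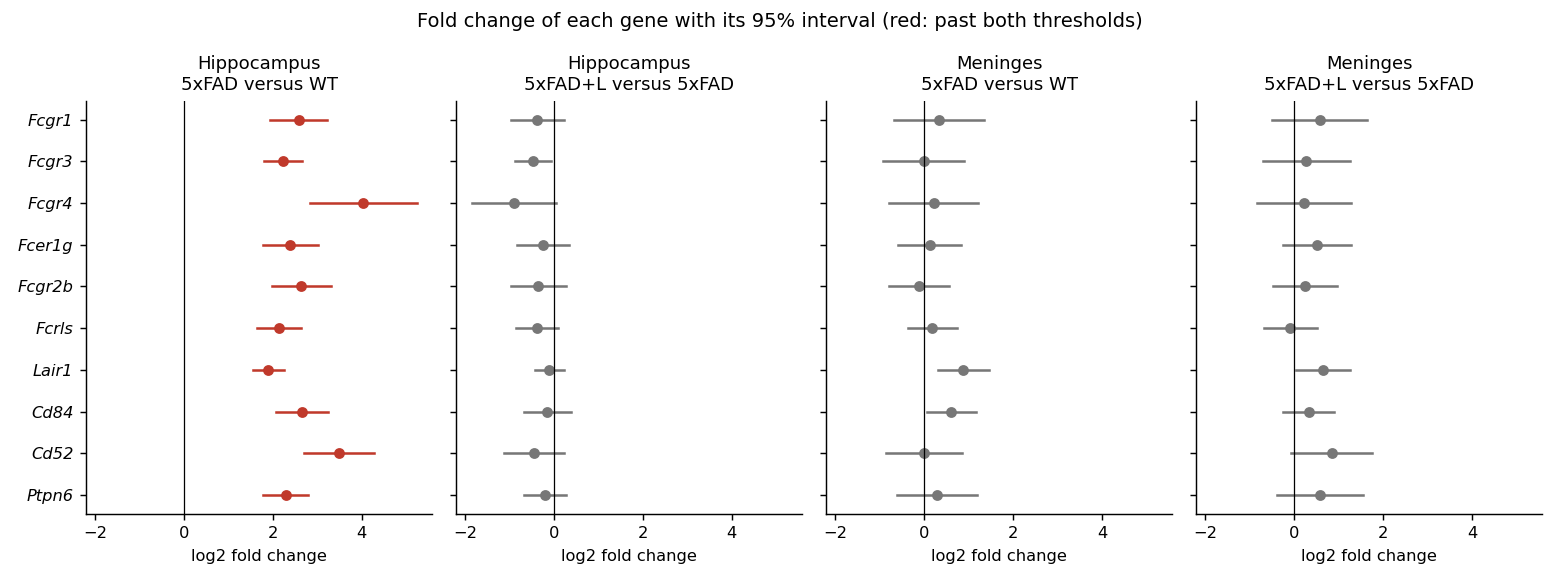
Log2 fold change of the 10 genes (points) with 95% intervals (lines) in 4 comparisons, from edgeR fits of HPC and meninges; red marks genes past both thresholds and grey the others. All 10 are red in HPC for 5xFAD versus WT, from 1.90 to 4.03, and none in the other 3 comparisons.

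The meninges, where these genes are carried by border macrophages and other leukocytes, were set against HPC in WT mice first. Of the 10 genes, 8 were called higher in meninges, against 30.1% of the 15132 genes tested in both tissues, and the median over all of those was 0.12 on the log2 scale. The differences were 5.15 for Fcgr4, 4.69 for Cd52, 2.72 for Fcgr2b, 2.22 for Fcer1g, 2.00 for Fcgr1, 1.87 for Ptpn6, 1.51 for Fcgr3 and 1.50 for Cd84, with edgeR adjusted p from 7.54e-09 to 0.000464. Fcrls (0.46, adjusted p = 0.0985) and Lair1 (-0.23, adjusted p = 0.307) were not called. Cd52, at rank 5 in WT HPC, had rank 2 in WT meninges at 87.2, 141, 63.2 and 165 FPKM, and Lair1, at rank 4 in HPC, was the lowest at 5.09, 4.10, 3.35 and 3.39.

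The ratio of activating receptors to Fcgr2b was 2.24, 3.59, 1.90 and 2.27 in WT meninges against 6.41, 7.87, 8.64 and 5.45 in WT HPC. Fcgr3 made up most of the activating sum. Its mean FPKM in WT meninges was 62.5, beside 8.43 for Fcgr1 and 7.01 for Fcgr4. In WT HPC the means were 21.1, 2.41 and 0.19. The ranges did not overlap, and the exact permutation p was 0.0286 (two-sided, n = 4 and 4), the smallest possible. That test took the samples of the tissues as separate mice, which was not checked. The 6 B and plasma cell markers summed to 116 to 205 FPKM in WT meninges and 0.50 to 1.12 in WT HPC, and neutrophil markers to 536 to 1564 and 0.74 to 1.76, with all 6 and all 7 present in every WT meninges sample. The part of these cells in the ratio was not tested.

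**Figure D3:**
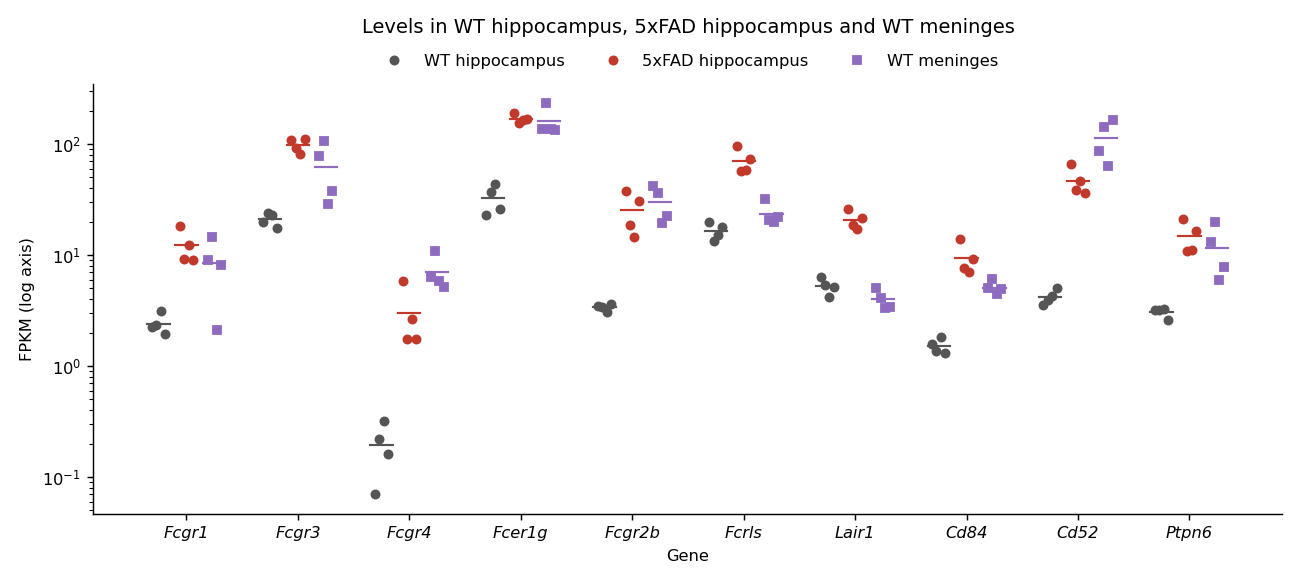
FPKM on a log axis of the 10 genes in WT HPC (grey), untreated 5xFAD HPC (red) and WT meninges (purple squares), 4 mice in each group, 1 point per mouse with lines at the means. Fcgr4 in WT HPC, at 0.07 to 0.32, lies below 5xFAD HPC and meninges, and Fcrls, Lair1 and Cd84 in 5xFAD HPC lie above meninges.

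In meninges none of the 10 genes was called changed between untreated 5xFAD and WT mice by edgeR or DESeq2, and edgeR called 0% of the 14318 tested genes. At an unadjusted edgeR p below 0.05, 4.01% of the tested genes and 2 members stood out. Lair1 measured 5.81, 6.40 and 10.7 FPKM in untreated 5xFAD meninges, each above the 4 WT values. Its log2 fold change was 0.89 (SE 0.26), with an edgeR adjusted p of 0.987 and an unadjusted p of 0.0051. It was the only member without overlap, against 2.19% of the tested genes. Cd84 measured 5.00, 6.02, 4.45 and 4.91 in WT and 6.85, 5.73 and 6.63 in untreated 5xFAD meninges, with overlapping groups. Its log2 fold change was 0.61 (SE 0.25), with an edgeR adjusted p of 0.987 and an unadjusted p of 0.0299. The values of the other 8 genes ran from -0.12 to 0.33, with intervals that reached at most 1.34.

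The meninges varied more between mice of a group than HPC did. Fcgr3, for example, measured 78.2, 105, 28.8 and 37.6 FPKM in WT, 39.3, 76.4 and 71.5 in untreated 5xFAD and 101, 68.1 and 56.9 in light-treated meninges. Those 3 groups overlapped throughout. The biological coefficient of variation was 0.350 in meninges and 0.198 in HPC, and simulated 2-fold changes were recovered for 4 of 200 genes in meninges and 150 of 200 in HPC, at an adjusted p below 0.05 for 5xFAD versus WT. A change of that size was therefore mostly not detectable in meninges, and of 4-fold changes 152 of 200 were recovered.

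Whether the step from WT to 5xFAD differed between HPC and meninges was tested in a joint fit of the 22 samples, each taken as a separate mouse. Of the 10 genes, 8 were called, all with the larger value in HPC, against 1.64% of the 15132 tested genes in that direction, and the median over all genes was 0.11. The difference between tissues was 3.80 on the log2 scale for Fcgr4 (SE 0.77, edgeR adjusted p = 0.0102), 3.49 for Cd52, 2.76 for Fcgr2b, 2.26 for Fcer1g, 2.23 for Fcgr3, 2.04 for Cd84, 2.00 for Ptpn6 and 1.95 for Fcrls. Ptpn6 was borderline (adjusted p = 0.0496) and held in 6 of 22 alternatives. Fcgr1 at 2.25 (adjusted p = 0.0545) and Lair1 at 1.01 (adjusted p = 0.0901) were not called. Fcgr3 lost its call without WT HPC mouse 4 (adjusted p = 0.056) or without untreated meninges mouse 1 (0.0797), and Fcgr4 lost its call with limma on log2(FPKM + 1) (0.15). By contrast, Fcgr1 gained one with DESeq2 (0.00886) and without HPC 5xFAD mouse 2 (0.0485), WT meninges mouse 3 (0.0131) or 5xFAD meninges mouse 2 (0.0444), and Lair1 gained one without 5xFAD meninges mouse 4 (0.0157).

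In meninges, no member was called between light-treated and untreated 5xFAD mice either, with 0.014% of the tested genes called. Lair1 measured 19.4, 12.9 and 10.8 FPKM in light-treated mice, just clear of the untreated values. Its log2 fold change was 0.66 (SE 0.28), with an edgeR adjusted p of 0.366, and it was the only member with an unadjusted p below 0.05 (0.0359), a level that 12.7% of the tested genes reached. Cd84, at 11.3, 7.21 and 7.14, and Cd52, at 313, 161 and 137 in light-treated and 74.6, 134 and 134 in untreated mice, also lay above every untreated mouse, with values of 0.33 and 0.84 and adjusted p of 0.615 and 0.42. Of the 10 members, 3 were thus higher without overlap, against 10.1% of the tested genes. Relative to the pan-myeloid genes Fcrls alone was free of overlap, lower by 0.44 (exact permutation p = 0.1, two-sided, the smallest possible), against 11% of the tested genes. Without light-treated mouse 1 the log2 fold change was 0.38 for Lair1 and 0.05 for Cd84, with edgeR adjusted p of 0.62 and 0.96. The difference of the light effect between HPC and meninges was called for none of the 10, against 0.971% of the tested genes, and its values ran from -1.26 for Cd52 to -0.26 for Fcrls. Cd52 and Lair1 had an unadjusted p below 0.05 there, as did 19.8% of the tested genes.

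**Figure D4:**
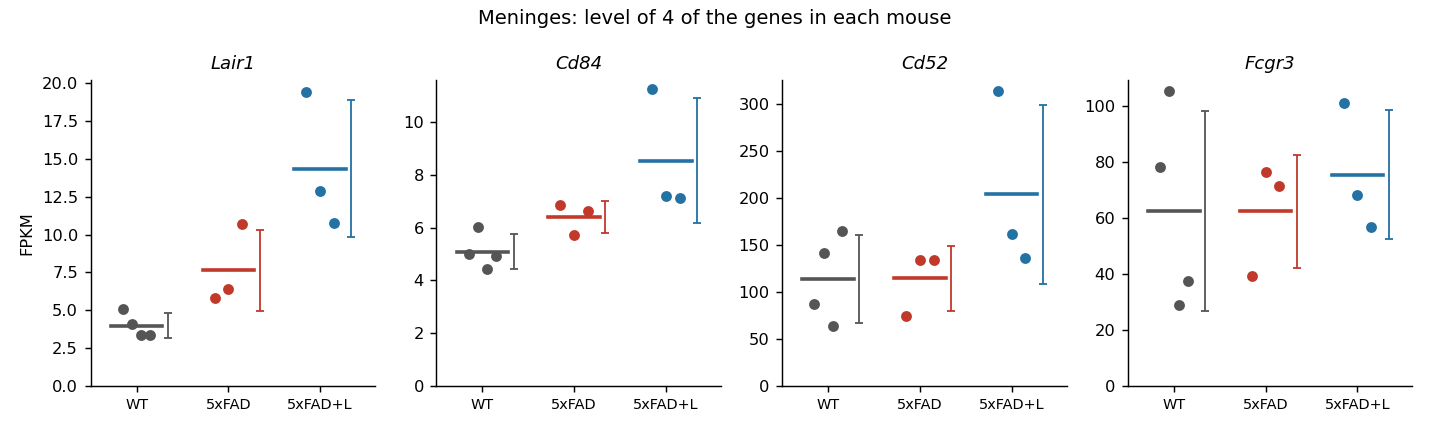
FPKM of Lair1, Cd84, Cd52 and Fcgr3 in meninges, 1 point per mouse, for 4 WT, 3 untreated 5xFAD and 3 light-treated (5xFAD+L) mice; lines are means, bars are SD and each axis starts at 0. Lair1 lies at 3.35 to 5.09 in WT, 5.81 to 10.7 in 5xFAD and 10.8 to 19.4 in 5xFAD+L, and Fcgr3 overlaps in all groups.

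The largest difference of a member in meninges was that of Lair1 between light-treated 5xFAD and WT mice. It was 1.54 on the log2 scale (SE 0.26, 95% interval 0.98 to 2.11), with an unadjusted edgeR p of 5.1e-05 and an adjusted p of 0.0808, so it was not called, and 0.014% of the tested genes were. Lair1 and Cd84 were the members with an unadjusted p below 0.05 and also those higher without overlap, against 16.4% and 6.99% of the tested genes. Lair1 did pass with DESeq2 (adjusted p = 0.000378), with no filter on low values (0.0387) and without WT mouse 2 (0.0385), at log2 fold changes of 1.52, 1.57 and 1.51. Relative to the pan-myeloid genes it was higher by 0.91 in untreated 5xFAD than in WT meninges with no overlap (exact permutation p = 0.0571, two-sided, the smallest possible for 4 against 3), as were 1.26% of the tested genes. Cd84 differed by 0.94 between light-treated and WT mice (SE 0.25, adjusted p = 0.142). Light-treated mouse 1 had the highest meninges level of both genes and, with 7547 summed FPKM of the 7 neutrophil markers against 536 to 3103 in the other mice, also stood apart in that list. Without that mouse the log2 fold change of Lair1 was 1.27 (adjusted p = 0.208).

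In meninges the other genes of the pathway had 0 called in any comparison and either direction. Between untreated 5xFAD and WT mice, the medians were -0.08 for 10 tested ITAM adaptors and kinases, 0.08 for 19 downstream genes, -0.12 for 12 phosphatases and adaptors, 0.31 for 19 other inhibitory receptors, 0.08 for 8 SLAM genes and 0.02 for 9 ligands of Lair1. Fcgrt had an FPKM of 181 to 284 in WT meninges and 10.6 to 15.9 in WT HPC.

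The sorted mLECs were examined for the same genes. Fcgr1, Fcgr4, Fcrls, Cd52 and Ptpn6 had 0 counts in all 10 libraries, which allows at most 0.124 to 0.211 CPM in a library (3 counts, counting error only). Lair1 had 1 count in 1 library, and Cd84 had counts in 2, the highest 56.7 in light-treated library 3. Ptprc, which encodes CD45, and Tyrobp were at 0 in all 10. Of the 6 pan-myeloid genes, 1 to 3 were above 0 in a library, and their summed FPKM was 57.4 to 255 in WT, 2.25 to 27.2 in untreated 5xFAD and 0.03 to 21.3 in light-treated libraries. Nearly all of that sum was Irf8, at 51.6 to 255 in WT, 2.25 to 27.2 in untreated 5xFAD and 0.03 to 21.3 in light-treated libraries, while Spi1 and Laptm5 were at 0 in all 10, Csf1r and Itgam were at most 0.02 and Aif1 at most 5.86. Of the 8 border macrophage markers, 0 to 2 were above 0 in a library, with sums of 0 to 45.6 in WT, 0 to 14.97 in untreated 5xFAD and 0 to 2.47 in light-treated libraries. Igkc reached 172.67, C1qc 59.25 and C1qb 40.32 in WT libraries, each with a median of 0. The part of leukocyte RNA in these libraries was not tested. The libraries were themselves sparse: between 37.3% and 57.1% of the genes tested in HPC had 0 counts in a library.

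Fcer1g and Fcgr2b were the exceptions. Fcer1g was above 0 in 10 of 10 libraries, at 0.41, 0.08, 37.3 and 53.4 FPKM in WT, 49.7, 19.6 and 185 in untreated 5xFAD and 121, 98.4 and 138 in light-treated mice. Fcgr2b was above 0 in 9 of 10, at 0.62, 0.21, 15.6 and 43.4 in WT, 16.8, 0 and 13.2 in untreated 5xFAD and 34.3, 62.8 and 0.28 in light-treated mice. The near-0 values of Fcer1g were both in WT libraries, and those of Fcgr2b occurred in all 3 groups. Neither was called in any of the 3 comparisons, with 0% of the 8188 tested genes called for 5xFAD versus WT and for light-treated versus untreated mice and 0.0122% for light-treated versus WT. At an unadjusted p below 0.05 neither stood out, against 3.81%, 4.01% and 6.72% of the tested genes, and DESeq2 called neither. The 95% interval of Fcer1g for light-treated versus WT ran from -1.67 to 6.44 on the log2 scale.

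Fcgr3 was at 56.9 FPKM in light-treated library 3, with 1177 counts, where Fcgr2b was at 0.28, and at 0 or 1 count in the other 9 libraries. No other library had an FPKM of Fcgr3 above 0.05. Fcgrt was abundant in all 10 libraries, at 316 to 1280 FPKM. The identity of the sorted cells was uneven by their markers: Pecam1 was at 189 to 398 FPKM in all 10. The lymphatic marker Flt4 was above 0 in each library, at 3.83 to 81.61, and Lyve1 ran from 0 to 89.21. Prox1, which defines lymphatic endothelium, was at 0 in 3 libraries and Pdpn in 4. In WT libraries Ccl21a ran from 0 to 6533.78 and Mmrn1 from 0.06 to 126.29, whereas Reln was at most 1.14. The 5 blood endothelial markers, all present in each library, summed to 1036 to 3630. The biological coefficient of variation was 1.89, and the simulation recovered 14 of 200 genes changed 16-fold for 5xFAD versus WT, so differences between groups of mLECs were mostly not detectable.

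**Figure D5:**
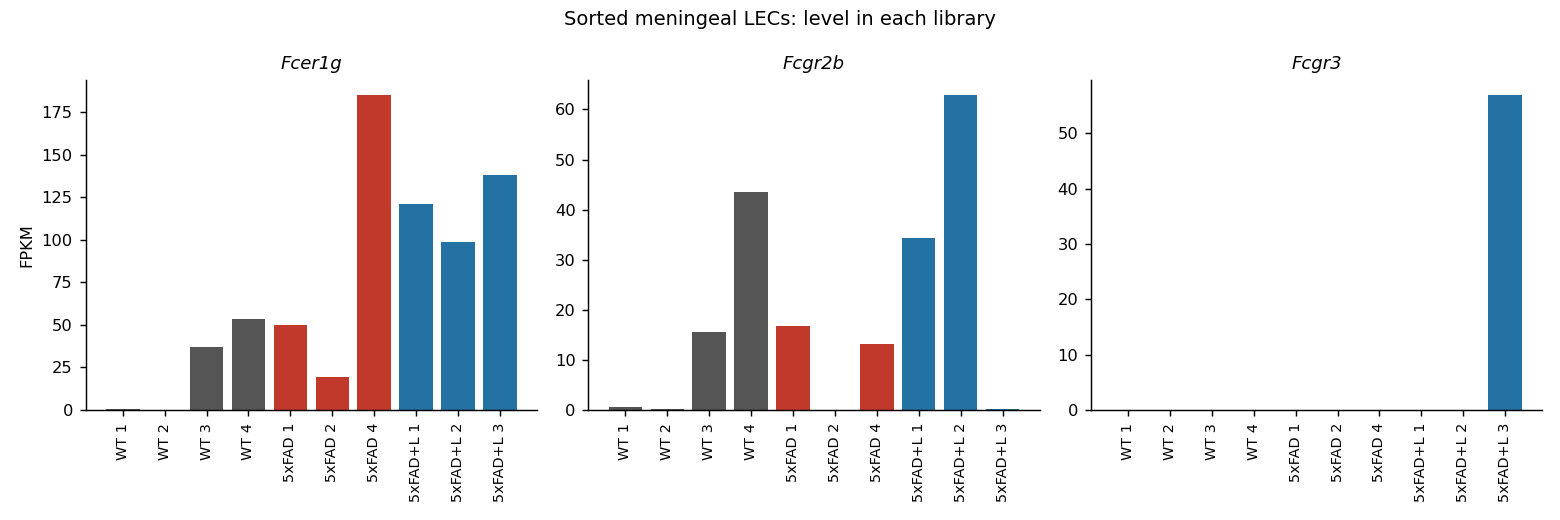
FPKM of Fcer1g, Fcgr2b and Fcgr3 in each of the 10 mLEC libraries (bars from 0), 4 of WT mice, 3 of untreated 5xFAD mice and 3 of mice with light (5xFAD+L). Fcer1g ranges from 0.08 to 185 and Fcgr2b from 0 to 62.8, and Fcgr3 is high in 1 library, at 56.9.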

How the data were processed

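Smart-seq2 RNA-seq was made from HPC, meninges and sorted mLECs, with 1 mouse per sample. The authors filtered reads with fastp, and per the labels the submitters' processing notes list mm10, Trimmomatic, HISAT2, StringTie and DESeq2. The authors deposited estimated counts per gene (RSEM expected counts, not normalized) and FPKM values, scaled by RSEM to transcript length and library size. Counts were rounded and fitted with edgeR 4.0.16 (R 4.3.3, TMM, quasi-likelihood), the 3 groups of a tissue together, over genes that reached an FPKM of 1 in 3 or more samples of the tissue. Differences between HPC and meninges came from 1 fit of both. Exact permutation tests used log2(FPKM + 1), two-sided, with a smallest p of 0.0286 for 4 against 4 mice, 0.0571 for 4 against 3 and 0.1 for 3 against 3. Nothing states whether the libraries keep strand. Symbols came from the mLEC table; the other table names Fcgr2b and Fcrls differently, and genes were joined by identifier. Steps were tested on simulated data. The members, lists and the rule for naming genes (every member, and of each other list the 4 tested genes with the lowest p in HPC, 5xFAD versus WT) were chosen with earlier results of these data known. Alternatives were median-of-ratios scaling, other filters, no fold threshold, DESeq2 1.42.0, limma 3.58.1, the compared groups alone, a replicate block, another pseudocount or reference gene and leaving out each mouse. A neighbouring gene and a detail of the mouse model are not reported here.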

Additional observations from a re-analysis of the deposited data

Results flagged for a closer look

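A sample far from the rest of its group was looked for in 43 groups of 4 values of a member, of which chance would flag about 1 in 20. These were found in 3 of them. Fcgr3 in WT mLECs had 1 library with a single count and the others at 0 (gap to range 1.0). Fcer1g in WT meninges had 1 mouse at 233 FPKM against 133 to 137 in the others (0.955). Ptpn6 in WT HPC had 1 mouse at 2.61 against 3.20 to 3.25 (0.922).

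The step from WT to untreated 5xFAD differed between HPC and meninges for 8 genes in the joint edgeR fit, always larger in HPC: by 3.80 on the log2 scale for Fcgr4, 3.49 for Cd52, 2.76 for Fcgr2b, 2.26 for Fcer1g, 2.23 for Fcgr3, 2.04 for Cd84, 2.00 for Ptpn6 and 1.95 for Fcrls.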

How the results depend on the processing

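In HPC, 9 to 10 members were called against WT, with or without light, under every alternative run, and 0 members were called between light-treated and untreated mice in any tissue. Between light-treated and WT meninges, 1 member was called with no filter on low values and 1 with DESeq2, and 0 to 1 when each mouse was left out; the cause was not tested. For the difference between the tissues, 6 to 9 members were called. Leaving out a mouse, the members free of overlap relative to the pan-myeloid genes numbered 0 to 1 for light in HPC, 1 to 3 for 5xFAD versus WT in meninges and 1 to 5 for light in meninges. Signs of the fitted fold changes turned in some alternative for 6 of 10 members in meninges for 5xFAD versus WT, 5 for light-treated versus untreated and 4 for light-treated versus WT, for 3 in HPC for light-treated versus untreated, and for none in HPC against WT or in the differences between the tissues. Fcgr4 relative to the pan-myeloid genes in HPC, 5xFAD versus WT, ran from -0.0751 to 0.28 without each mouse, and Lair1, light-treated versus untreated, was -0.0565 with Csf1r alone as reference. For light in HPC, values without each mouse ran from -0.34 to 0.0372 for Ptpn6, from -0.35 to 0.14 for Cd84 and from -0.19 to 0.0212 for Lair1. In mLECs, Fcgr2b for 5xFAD versus WT was 0.0358 with limma on log2(FPKM + 1) and ran from -1.57 to 0.54 without each mouse, and for light-treated versus WT from -0.16 to 2.63. Within a tissue, the replicate numbers did not pair the samples of different groups. Their same-numbered deviations correlated at -0.28 to 0.09 in HPC, -0.31 to 0.24 in meninges and -0.03 to 0.01 in mLECs. Whether the same mouse gave both HPC and meninges was not checked. With the replicate number as a block, 10 members were called in HPC for 5xFAD versus WT, 0 in meninges, and 7 for the difference between the tissues. The log2 difference of the activating to inhibitory ratio in HPC, 5xFAD versus WT, ran from -0.71 to -0.42 without each mouse or with Fcgr3 alone over Fcgr2b, alternatives chosen after seeing the data. In the simulation 2-fold changes were mostly not recovered in meninges, nor 16-fold changes in mLECs, whose total counts were like those of HPC and whose spread between samples was larger.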
